A study of Homo sapiens with 2 samples.

Results

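Nalm-6 is an established human leukemia line of precursor B cells, and in its cultures some cells carry almost none of the transcripts that mark DNA synthesis and mitosis. These low-share cells were chosen by those transcripts themselves: among barcodes with at least 1000 genes, at most 10% of unique molecular identifiers (UMIs, each a counted transcript molecule) from mitochondrially encoded genes and at least 8700 UMIs, they are the lowest 10% of each library by the summed share of UMIs in MKI67, TOP2A, HIST1H4C, RRM2, TYMS, PCNA, CDK1 and UBE2C. The rule took 384 of 3829 kept cells: 205 of 2043 with ETV6-RUNX1 and 179 of 1786 from the LUC control. The other 1838 and 1607 kept cells are called remaining cells.

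The series asked how the ETV6-RUNX1 fusion, which is recurrent in childhood leukemia of B-cell precursors, changes transcription when it is expressed in Nalm-6. One library came from Nalm-6 cells carrying an inducible ETV6-RUNX1 construct and the other from Nalm-6 cells carrying inducible luciferase in its place. Both constructs were Tet-On, both cultures received 500 ng/ml doxycycline for 24 h, and dead cells were depleted with beads before droplet capture on the 10X system, which reads poly-A transcripts. Each construct was read in 1 library of 1 line with an introduced transgene, so differences between libraries have no replicate check, and cells of a library are not replicates. No test was made. Intervals are exact 95% intervals of the ratio between 2 Poisson counts; they cover counting error only, and where a gene varies from cell to cell they are narrower than its real uncertainty.

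A cell that has divided passes through G1, in which it either commits to a new round of replication or leaves the cycle for a resting state (G0). E2F factors switch on the genes of replication once the retinoblastoma family of pocket proteins is inactivated, and in resting cells the DREAM complex keeps both replication and mitosis genes low, in part through a promoter element named the cell cycle genes homology region (CHR). Precursor B cells divide under signals from the pre-B cell receptor, which contains the surrogate light chain proteins IGLL1 and VPREB1, and stop dividing before they rearrange their light chain genes.

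The values that chose the cells are given first, as a description. The 8 genes held a median of 0.0339% of UMIs in low-share cells and 0.594% in remaining cells with ETV6-RUNX1, and 0.0384% and 0.601% in the LUC control. The medians in UMIs were 5 against 111 and 6 against 133 per cell, and 5 and 2 low-share cells had none. There was no gap at the boundary: the nearest cells inside and outside it were at 0.04997% and 0.04999% with ETV6-RUNX1 and at 0.06126% and 0.06137% in the LUC control. The boundary was thus set at a lower share in the ETV6-RUNX1 library. HIST1H4C supplied 79.3% and 78.8% of the 8 genes' UMIs over all kept cells, so that it largely ranks the cells, and 58.6% and 50.1% within low-share cells. Ranked by the other 7 genes, the lowest 10% shared 160 of the 205 and 146 of the 179 cells.

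**Figure D1:**
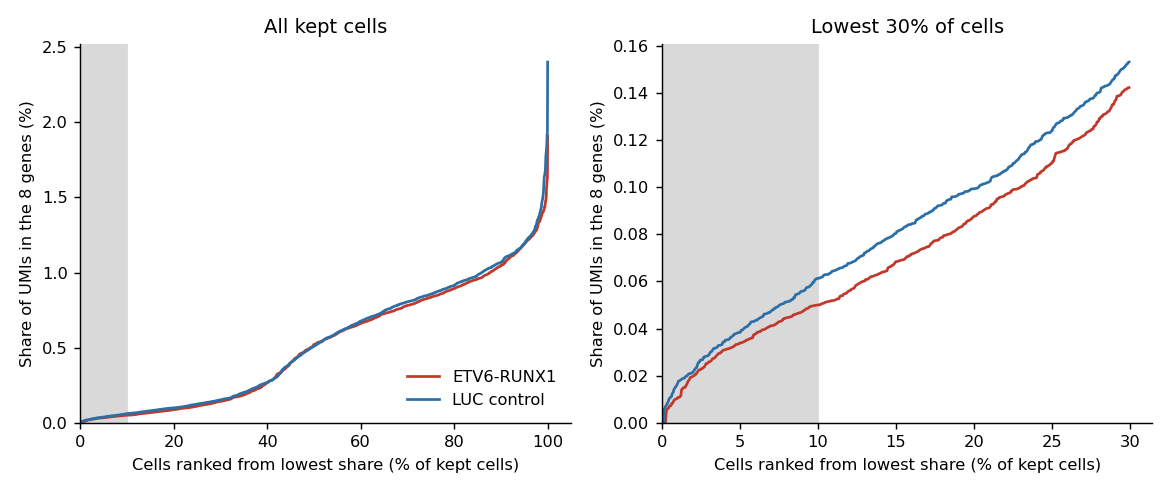
Share of each cell's UMIs that came from the 8 genes (vertical axis, %), with the kept cells of each library ranked from the lowest share (horizontal axis, % of kept cells); the grey band marks the low-share cells and the right panel enlarges the lowest 30%. The curves run without a step through the boundary, at 0.0500% with ETV6-RUNX1 and 0.0613% in the LUC control.

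Low-share cells also held less RNA. Their median was 15499 UMIs and 2753 genes against 20521.5 UMIs and 3412 genes in remaining cells with ETV6-RUNX1, and 16294 UMIs and 2950 genes against 23634 UMIs and 3728 genes in the LUC control. Mitochondrially encoded genes took a similar part of UMIs, a median of 4.63% against 4.49% and of 4.43% against 4.36%. Genes of ribosomal proteins took more, 47.2% against 43.5% and 45.2% against 42.0%. The part of RNA content and of the ribosomal protein share in the differences below was not tested, beyond the comparison with cells matched in UMIs. The low-share cells of each library sum to 3320581 and 3151819 UMIs. No barcode of a low-share cell occurred in the other library, although 16 barcodes were shared between the full libraries. RUNX1 differed between libraries by a log2 ratio of -0.24 in low-share cells, and ETV6 did not reach 10 CPM, the level from which genes were taken as measured. A count of poly-A ends need not see the introduced coding sequence, so these values check neither label.

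By their markers the low-share cells were B-cell precursors. CD79B, a signalling chain of the B-cell receptor, was detected in 98.0% and 100% of them without thinning to equal depth, and VPREB1 in 92.2% and 98.3%. The cultures held no other cell type to give the share that free RNA alone would produce. Markers of T and NK cells summed to 9.64 and 9.20 CPM in low-share cells against 7.69 and 9.28 in remaining cells, with 8 and 7 of 10 genes at 0 in low-share cells, and erythroid and megakaryocyte markers to 0.301 and 0.317 CPM, with 10 of 11 at 0 in both libraries. Myeloid markers summed to 27.7 and 27.3 CPM against 17.9 and 15.5, with 9 and 6 of 12 at 0. Stem and progenitor markers summed to 27.1 and 27.0 CPM against 17.4 and 21.7, with 6 of 9 at 0 in both libraries. Mature B and plasma cell markers summed to more, 479 and 656 CPM against 476 and 616, with 1 and 2 of 10 at 0 in low-share cells. Epithelial and fibroblast markers summed to 63.8 and 97.4 CPM against 67.7 and 63.3, with 8 of 10 at 0 in both, nearly all of it from PDGFRA, a growth factor receptor, with log2 ratios of -0.08 and 0.64. Of the myeloid markers, CST3, a cystatin secreted by many cell types, was the measured one, at 19.9 and 16.8 CPM against 10.8 and 9.54.

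For each gene, UMIs were summed over the low-share cells and over the remaining cells of a library and expressed as CPM (the count scaled to that sum's total). The 5735 genes with a mean of at least 10 CPM over the 4 sums were taken as measured. A gene was called higher or lower where the ratio was at least 1.5-fold and its interval excluded no difference. The rule chose the cells on transcripts of the cell cycle, so every count below describes cells that were already picked for one side of that contrast, and nothing is read from its size. With ETV6-RUNX1, 96 genes (1.67% of those measured) were higher and 516 (9%) lower in low-share cells, and in the LUC control 81 (1.41%) were higher and 430 (7.5%) lower. Both libraries called 38 genes higher (0.663%) and 307 lower (5.35%), which is 39.6% and 46.9% of the genes called higher in each library and 59.5% and 71.4% of those called lower. The 38 became 79 with the lowest 5% of cells and 15 with at most 6% mitochondrial UMIs, and the 81 became 197 and 45. No gene was called in opposite directions. The median log2 ratio over all measured genes was -0.08 in each library. When ribosomal protein and mitochondrially encoded genes were kept out of the totals, that median moved to 0.03 and 0.02, and the calls to 166 higher and 398 lower with ETV6-RUNX1 and to 131 higher and 329 lower in the LUC control. Against remaining cells drawn to match the low-share cells in UMIs per cell, the calls were 141 higher and 511 lower, and 83 higher and 518 lower. That draw kept only 205 and 179 of the 1838 and 1607 remaining cells. Its sums are shallower, so these counts are not like for like with those above.

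**Figure D2:**
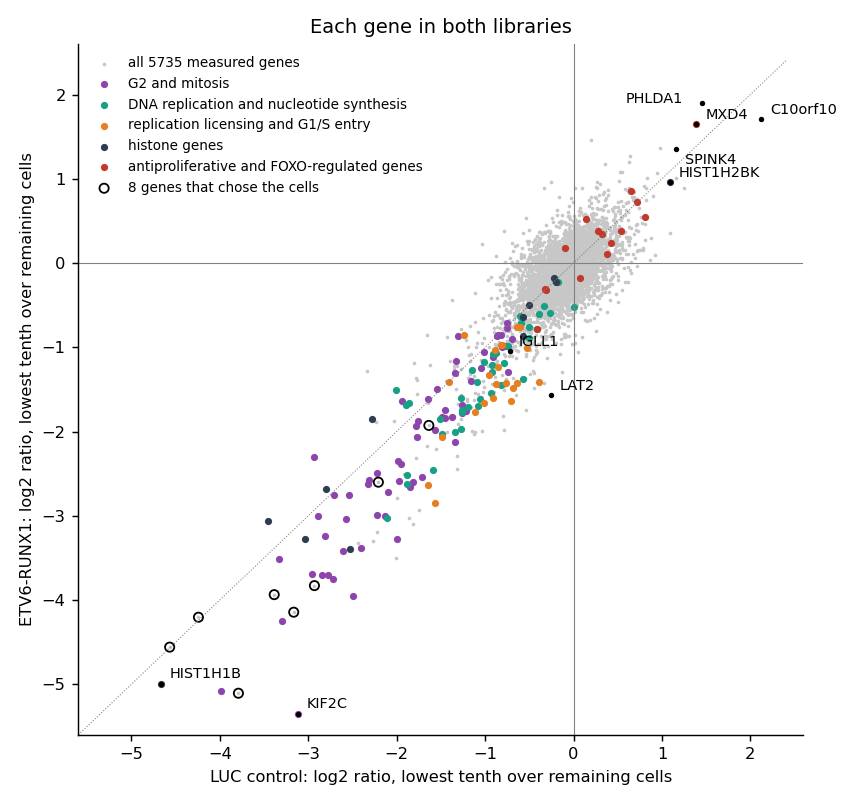
Each point is 1 of the 5735 measured genes, placed by its log2 ratio of CPM in low-share over remaining cells in the LUC control (horizontal axis) and in the ETV6-RUNX1 library (vertical axis), with gene lists in colour and the dotted line marking equal ratios. The lower left holds genes of mitosis and replication and the linker histone HIST1H1B (log2 ratio -4.99 and -4.67), and the upper right C10orf10, PHLDA1 and MXD4.

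The 8 rule genes had to be lower, and their log2 ratios in the order ETV6-RUNX1 and LUC control are given as a description. HIST1H4C had -4.56 and -4.57, UBE2C -4.20 and -4.24, CDK1 -5.11 and -3.79, RRM2 -4.14 and -3.16, and TOP2A -3.94 and -3.39. MKI67 had -3.83 and -2.93, TYMS -2.60 and -2.21, and PCNA, the sliding clamp of replication, -1.93 and -1.64.

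Among other genes, those of G2 and mitosis had the lowest list medians. All 61 measured genes of that list, which leaves out the 8 rule genes, were called lower in each library. Beside them, 9% and 7.5% of all measured genes were called lower. The list's median log2 ratio was -2.12 with ETV6-RUNX1 and -1.78 in the LUC control. Of these 61, 25 were under 10 CPM in the low-share cells of both libraries and counted as measured only through the remaining cells, so they had to be lower. The other 13 genes of the list in the matrices did not reach the floor. PLK1, the kinase that drives mitotic entry and spindle assembly, was at 3.01 CPM in low-share cells and 38.9 in remaining cells with ETV6-RUNX1, and at 5.08 and 39.4 CPM in the LUC control. Those are log2 ratios of -3.69 (-4.76 to -2.81) and -2.95 (-3.77 to -2.25). AURKB, the kinase of the chromosomal passenger complex, was at 4.52 against 85.7 CPM and at 9.20 against 90.3 CPM.

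Other named genes of that list rest on very few molecules in the low-share cells. KIF2C, a kinesin that takes microtubules apart at kinetochores, had 2 UMIs in the 205 low-share cells with ETV6-RUNX1 (0.602 against 24.6 CPM) and 9 in the 179 of the LUC control (2.86 against 24.8 CPM), log2 ratios of -5.35 (-8.40 to -3.49) and -3.12 (-4.25 to -2.19). CKAP2L, a spindle protein, had 2 and 4 UMIs, log2 ratios of -5.08 (-8.13 to -3.22) and -3.99 (-5.87 to -2.62). DLGAP5, CDCA3, SPC25, HJURP and NDC80, most of them parts of the spindle and kinetochore, had between 5 and 20 UMIs in the low-share cells of a library. Their log2 ratios lay between -3.96 and -2.49, NDC80 having both extremes. The highest level of these 7 genes in the low-share cells of a library was 6.35 CPM, of SPC25 in the LUC control.

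PLK1 and CKAP2L show the promoter elements that were searched for in this group. The letters below are the 250 bases before the transcription start, from RefSeq on GRCh38.p14, with matches to the CHR (TTTGAA) and to the CCAAT box (CCAAT) in capitals, on either strand. PLK1 lies on chromosome 16 (chr16:23678639-23678888, plus strand) and CKAP2L on chromosome 2 (chr2:112764610-112764859, minus strand).
PLK1: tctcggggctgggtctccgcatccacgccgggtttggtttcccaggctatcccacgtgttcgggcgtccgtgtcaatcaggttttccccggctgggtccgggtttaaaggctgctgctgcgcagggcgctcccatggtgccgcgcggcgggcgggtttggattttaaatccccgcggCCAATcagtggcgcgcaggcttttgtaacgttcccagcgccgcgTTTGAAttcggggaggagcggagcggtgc
CKAP2L: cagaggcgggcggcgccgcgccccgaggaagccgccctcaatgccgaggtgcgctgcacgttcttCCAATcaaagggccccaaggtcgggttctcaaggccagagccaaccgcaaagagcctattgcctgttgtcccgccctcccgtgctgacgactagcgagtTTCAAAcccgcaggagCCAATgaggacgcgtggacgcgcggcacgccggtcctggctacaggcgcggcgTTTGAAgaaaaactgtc
In PLK1 the CCAAT box begins 73 bases and the CHR 29 bases before the start. CKAP2L has a CCAAT box at 185 and 70 bases and CHR letters at 86 (as TTCAAA, the other strand) and 17 bases before it.

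Over windows of 300 bases (250 before to 50 after the start), 33 of 53 listed genes of G2 and mitosis with a RefSeq entry held TTTGAA, or 62.3%, against 9.66% of the 4473 measured genes with an entry and 15.4% of all 27305 RefSeq promoters. CCAAT was found in 38 of those 53, or 71.7%, against 39.6% and 35.7%. None of the motifs searched contains another, and a match is a description of letters, not a site shown to be in use. Of the 12 highest genes described below, 8 have an entry, and C10orf10, ANGPT2, HIST1H2BK and CTD-2267D19.2 have none. The forkhead letters GTAAACA were in 0 of these 8, against 2.08% of measured genes and 3.41% of all promoters. The E-box CACGTG, which MAX dimers can bind, was in 2 of 8, against 11.6% and 7.43%. So few promoters cannot show whether either motif is rarer or more common there.

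The mRNAs of replication-dependent histones mostly end without a poly-A tail, so a poly-A method counts only part of them. Of 12 measured histone genes, 8 and 6 were called lower and 1 higher, beside 9% and 7.5% lower among all measured genes. HIST1H1B, HIST1H1E and HIST2H2AC were the 3 under 10 CPM in the low-share cells of both libraries. They counted as measured only through the remaining cells, so they had to be lower. Not called in either library were H3F3A, H3F3B and H2AFV, variant histone genes, with log2 ratios between -0.50 and -0.18. These 3 were named after their values were seen. HIST1H1B, a linker histone gene expressed in S phase, was at 2.41 against 76.7 CPM with ETV6-RUNX1 and at 2.54 against 64.4 CPM in the LUC control, and HIST1H1E, another linker histone gene, at 6.93 against 67.2 and 6.35 against 52.2 CPM (log2 ratios -3.28 and -3.04). HIST2H2AC, an H2A gene, gave log2 ratios of -3.06 and -3.45, and of -0.09 and -0.83 against the next-ranked 10% of cells alone. HIST1H2BK, an H2B gene, was the one called higher: 31.0 against 15.9 CPM and 31.1 against 14.7 CPM, log2 ratios of 0.96 (0.65 to 1.26) and 1.09 (0.76 to 1.40).

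Genes that prepare and carry out replication were lower too. All 22 measured genes of replication licensing and G1/S entry were called lower with ETV6-RUNX1 and 20 of them in the LUC control. Their medians were -1.42 and -0.87, and 9% and 7.5% of all measured genes were called lower. CDC45, a part of the replicative helicase, had 18 and 44 UMIs in the low-share cells of the libraries, with log2 ratios of -2.85 (-3.61 to -2.18) and -1.57 (-2.04 to -1.14). E2F2, an activating E2F factor, was at 9.34 against 57.8 and 18.7 against 58.6 CPM, log2 ratios of -2.63 and -1.65. MCM10, a replication initiation factor, gave log2 ratios of -2.07 and -1.49. MCM6 and UNG were the 2 genes not called in the LUC control, at -0.52 and -0.39. These 2 were named after their values were seen.

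Among 39 measured genes of DNA replication and nucleotide synthesis, 36 and 30 were called lower and none higher. Of all measured genes, 9% and 7.5% were called lower and 1.67% and 1.41% higher. The list medians were -1.41 and -1.01. CDCA5, which protects sister chromatid cohesion, had log2 ratios of -3.03 and -2.11. ASF1B, a histone chaperone, had -2.52 and -1.89. Of the licensing and replication genes, 2 and 4 were under 10 CPM in the low-share cells of both libraries and counted as measured only through the remaining cells. In the licensing, replication and mitosis lists, each median was farther from 0 with ETV6-RUNX1, where the boundary for low-share cells was also lower; the part of the boundary was not tested.

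E2F2 carries one of the E2F letter strings searched for, which are TTTCCCGC and TTTGGCGC. Its 250 bases before the start (GRCh38.p14, chr1:23531234-23531483, minus strand) are shown because the licensing and mitosis lists held different shares of these motifs. The match to TTTGGCGC is in capitals and begins 42 bases before the start.
E2F2: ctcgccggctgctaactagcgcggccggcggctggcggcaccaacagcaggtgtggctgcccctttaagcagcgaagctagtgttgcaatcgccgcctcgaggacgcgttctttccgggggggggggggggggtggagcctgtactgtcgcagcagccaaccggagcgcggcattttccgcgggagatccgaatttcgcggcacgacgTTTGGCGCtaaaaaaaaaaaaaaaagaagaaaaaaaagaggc
TTTCCCGC was found in 5 and TTTGGCGC in 6 of 19 licensing genes with an entry, or 26.3% and 31.6%. Among measured genes the shares were 3.40% and 1.48%, and among all RefSeq promoters 1.66% and 0.659%. In the replication list, 7 and 3 of 30 held them. TTTGAA was in 0 of the 19 licensing genes and in 2 of the 30 replication genes.

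The genes that were highest in low-share cells in both libraries did not belong to a single list. C10orf10, also known as DEPP1 and regulated by FOXO factors, was at 39.1 CPM in low-share and 12.0 CPM in remaining cells with ETV6-RUNX1, and at 33.9 and 7.82 CPM in the LUC control. Its log2 ratios were 1.71 (1.42 to 1.99) and 2.12 (1.79 to 2.44). Its 130 and 107 UMIs came from 46 and 37 low-share cells, with 10.8% and 10.3% of them in a single cell. MXD4, a MAX partner that opposes MYC, was at 36.4 against 11.6 CPM and 25.1 against 9.56 CPM, log2 ratios of 1.65 (1.35 to 1.94) and 1.39 (1.02 to 1.74), and was more widely spread, with UMIs in 69 and 54 low-share cells.

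Of the 12 genes with the highest ratios, 6 were under 10 CPM in the remaining cells of both libraries and counted as measured only through the low-share cells, so they had to be higher: PHLDA1, HCST, BBC3, CTD-2267D19.2, CD52 and KLHL24. PHLDA1, a pleckstrin homology-like protein linked to cell death, was at 18.1 against 4.83 CPM and 15.5 against 5.70 CPM, log2 ratios of 1.90 and 1.45. SPINK4, of the Kazal family of serine protease inhibitors, was at 69.6 against 27.3 and 75.2 against 33.7 CPM, log2 ratios of 1.35 and 1.16. HCST, the adaptor also known as DAP10, was at 20.5 against 9.40 and 23.5 against 9.61 CPM, and TM7SF2, a sterol reductase of cholesterol synthesis, at 25.9 against 10.1 and 19.4 against 9.82 CPM. ANGPT2, a secreted ligand of the TIE2 receptor, had log2 ratios of 1.01 and 1.16.

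BBC3, which encodes the pro-death protein PUMA, had log2 ratios of 0.89 (0.34 to 1.39) and 1.25 (0.78 to 1.68), from 37 and 51 UMIs, of which a single cell held 21.6% with ETV6-RUNX1. KLHL24, an adaptor of a ubiquitin ligase, had 1.01 and 0.83, CTD-2267D19.2 had 1.06 and 0.94, and CD52, a small surface glycoprotein of lymphocytes, had 1.28 and 0.64. The 12 genes came from few molecules each: no more than 237 UMIs of any of them lay in the low-share cells of a library. In the LUC control CD52 kept a 1.5-fold ratio in 7 of 11 alternative settings and KLHL24 in 8. CTD-2267D19.2 there, and HIST1H2BK with ETV6-RUNX1, kept it in 10, and the other values of the 12 genes kept it in all 11. Against the next-ranked 10% of cells alone, 6 values were under 1.5-fold: BBC3 with ETV6-RUNX1 at 0.05, HIST1H2BK at 0.05 and 0.22, CD52 at 0.44 and 0.45, and KLHL24 in the LUC control at 0.44.

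The 12 genes were also counted together in single cells, after each cell was thinned to 8700 UMIs. At least 3 of the 12 were detected in 70 of 205 low-share cells (34.1%) against 147 of 1838 remaining cells with ETV6-RUNX1, and in 70 of 179 (39.1%) against 141 of 1607 (8.77%) in the LUC control. None was detected in 13.7% against 35.3% and in 14.5% against 33.7%. C10orf10 alone was detected in 16.6% (11.8 to 22.4, exact binomial 95% interval) of low-share cells and 8.81% (7.56 to 10.2) of remaining cells with ETV6-RUNX1, and in 17.9% (12.6 to 24.3) against 5.35% (4.30 to 6.57) in the LUC control. Without thinning those shares were 22.4%, 14.1%, 20.7% and 11.8%. Each of the 12 genes was detected in a larger share of low-share than of remaining cells in both libraries, except CD52 in the LUC control, at 7.26% (3.92 to 12.1) against 7.84% (6.57 to 9.26), or 16.2% against 18.0% without thinning. These genes were chosen for being higher in the same cells.

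Regulators of the cell cycle went in both directions. Of 13 measured G1 cyclins, CDK inhibitors and pocket proteins, 4 and 3 were called lower and 1 higher, with medians of -0.30 and -0.28. Among all measured genes, 9% and 7.5% were called lower and 1.67% and 1.41% higher. The one called higher was CDKN1A, which encodes the CDK inhibitor p21, at 80.4 against 44.2 CPM with ETV6-RUNX1 and 66.6 against 43.8 CPM in the LUC control, log2 ratios of 0.86 and 0.61. It was named after its values were seen. After thinning to equal depth, CDKN1A was detected in 33.2% (26.8 to 40.1) of low-share and 28.2% (26.1 to 30.3) of remaining cells with ETV6-RUNX1. In the LUC control it was detected in 30.2% (23.5 to 37.5) against 25.1% (23.0 to 27.3). These exact binomial intervals cover the sampling of cells within 1 library, and cells are not replicates. The thinned mean was 0.610 against 0.387 UMIs per cell with ETV6-RUNX1 and 0.514 against 0.365 in the LUC control. Without thinning, the shares were 54.1% against 47.7% with ETV6-RUNX1 and 44.7% against 48.2% in the LUC control. How widely the higher level was spread over the low-share cells was not tested. The inhibitors CDKN2C (p18) and CDKN2D (p19) were lower too. CDKN2C had 30 and 25 UMIs in low-share cells, with a log2 ratio of -1.19 in the LUC control. It was under 10 CPM in the low-share cells of both libraries and counted as measured only through the remaining cells. CDKN2C thus had to be lower. CDKN2D had log2 ratios of -1.13 and -0.65. CDK2, the kinase of S phase entry, had -1.46 and -0.79. In the LUC control the log2 ratios against the next-ranked 10% of cells were 0.07 for CDKN2D and -0.14 for CDKN2C.

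Antiproliferative and FOXO-regulated genes had medians of 0.35 and 0.32, with 3 and 4 of 15 called higher and 1 and 0 called lower. Among all measured genes, 1.67% and 1.41% were called higher and 9% and 7.5% lower. Beside MXD4, those called higher in both libraries were BTG2, an antiproliferative gene induced by p53 and other signals, with log2 ratios of 0.86 and 0.65, and YPEL5 with 0.72 and 0.72. Against the next-ranked 10% of cells, BTG2 was at 0.86 and 0.31 and YPEL5 at 0.06 and 0.40. The p53 target list had medians of 0.33 and 0.08, with 5 and 4 of 16 called higher and 1 lower, beside the same shares of all measured genes. BBC3, 1 of those called higher, was under 10 CPM in the remaining cells of both libraries, so it had to be higher. CDKN1A is also in the list of G1 cyclins, and BTG2 and GADD45A are also in the antiproliferative list. These lists are thus not separate sets of genes. ZMAT3, an RNA-binding p53 target, was at 17.8 against 10.2 and 17.5 against 9.36 CPM, log2 ratios of 0.79 and 0.90, and of 0.10 and 0.87 against the next-ranked 10% of cells. DDB2, a DNA repair factor on the same list, went the other way, at 10.8 against 28.7 and 13.3 against 27.0 CPM, log2 ratios of -1.40 and -1.02. MDM2, the ubiquitin ligase of p53, was near equal at 0.03 and 0.06. MDM2 was named after its values were seen.

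**Figure D3:**
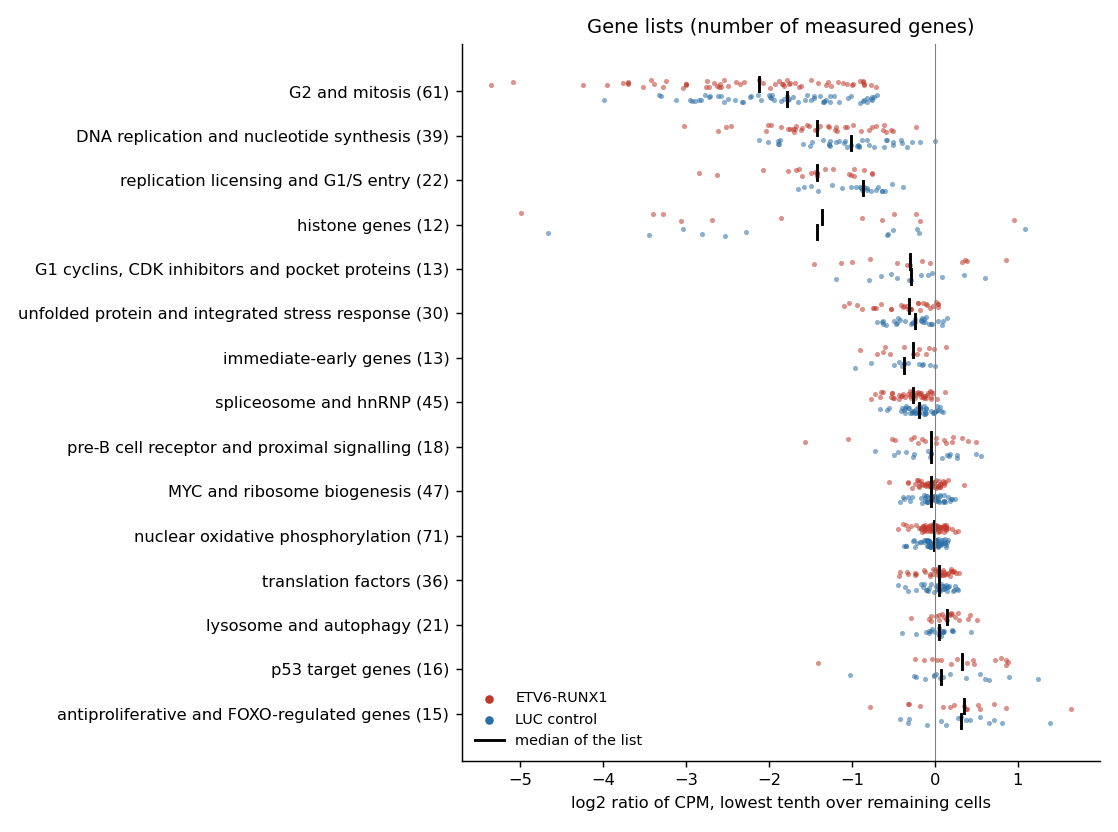
Log2 ratio of CPM in low-share over remaining cells (horizontal axis) for the measured genes of 15 lists (rows, number of genes in brackets); each dot is 1 gene in 1 library and black bars are list medians. The G2 and mitosis list lies lowest, with medians of -2.12 and -1.78, and the antiproliferative list highest, at 0.35 and 0.32.

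Against remaining cells as a whole, lists of growth and metabolism lay near the value of all measured genes. None of 47 measured genes of the MYC and ribosome biogenesis list was called in either library, with medians of -0.04 and -0.04. MYC itself was at 130.1 against 102 CPM and 153 against 134 CPM, log2 ratios of 0.35 and 0.19. Medians were 0.06 for translation factors and -0.01 for nuclear genes of oxidative phosphorylation with ETV6-RUNX1, with no gene of either list called in either library. Medians this close to 0 took either sign under other scalings: that of the MYC list became 0.07 and 0.06 when ribosomal protein and mitochondrially encoded genes were kept out of the totals. Lysosome and autophagy genes had no call among 21, and MAP1LC3B, which marks autophagosomes, had log2 ratios of 0.51 and 0.44.

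Some genes of amino acid supply and stress were called lower. Of 30 measured genes that respond to unfolded protein or to lack of amino acids, 8 and 4 were called lower and none higher, beside 9% and 7.5% lower among all measured genes. PHGDH, the first enzyme of serine synthesis, was at 57.5 against 123 CPM and 79.6 against 129 CPM, log2 ratios of -1.10 (-1.31 to -0.89) and -0.70 (-0.88 to -0.51). SLC7A5, a transporter of large amino acids, had -0.94 and -0.63, and ASNS, which makes asparagine, -1.03 and -0.42. Immediate-early genes, which respond within minutes to stimuli and to handling, had 4 and 2 of 13 called lower, beside the same 9% and 7.5%. FOSB was at 57.5 against 88.5 and 40.9 against 79.4 CPM, and FOS at 112 against 164 and 91.7 against 156 CPM. In the splicing list, 5 and 1 of 45 were called lower, near or below the 9% and 7.5% of all measured genes.

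In the list for pre-B receptor signalling, 2 and 1 of 18 measured genes were called lower. Of 26 B-lineage transcription factors, 2 and 1 were called lower and 0 and 1 higher. Among all measured genes, 9% and 7.5% were called lower and 1.67% and 1.41% higher, and nothing is read from these counts. IGLL1 was at 569 CPM in low-share and 1177 CPM in remaining cells with ETV6-RUNX1, and at 1161 and 1916 CPM in the LUC control, log2 ratios of -1.05 (-1.12 to -0.98) and -0.72 (-0.77 to -0.68). Its partner VPREB1 was at 529 against 739 CPM and 1001 against 1063 CPM, log2 ratios of -0.48 (-0.55 to -0.41) and -0.09 (-0.14 to -0.03). CD79A was higher by log2 ratios of 0.22 and 0.50, and DNTT, which adds bases at V(D)J junctions, by 0.18 and 0.21, neither of them at 1.5-fold. PAX5, which keeps B-cell identity, was at -0.30 (-0.49 to -0.12) and -0.28 (-0.48 to -0.09), and EBF1, which specifies the lineage, at 0.03 and -0.03. CD79B was at 508 against 503 and 557 against 492 CPM.

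RAG1 and RAG2, the recombinase genes, had log2 ratios of 0.03 and 0.30 with ETV6-RUNX1 and of -0.05 and 0.25 in the LUC control. RAG1 and RAG2 were named after their values were seen. HMGB1, a chromatin protein that assists the recombinase and is abundant in dividing cells, was at 1498 against 2821 and 1900.2 against 2855 CPM, log2 ratios of -0.91 and -0.59. CBFB, the partner subunit of RUNX factors, was at 16.0 against 31.8 and 25.4 against 42.9 CPM, log2 ratios of -0.99 (-1.42 to -0.60) and -0.76 (-1.10 to -0.43). CD72, a B-cell co-receptor, had 0.40 and 0.56.

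Ranking the cells into 10 bins of equal size showed which of these levels set the low-share cells apart from their neighbours and which were part of a longer slope. C10orf10 was at 39.1 CPM in bin 1, 13.3 in bin 2 and 8.63 in bin 3 with ETV6-RUNX1, and at 33.9, 8.74 and 5.26 CPM in the LUC control. In bins 2 to 10 it lay between 5.47 and 20.4 and between 4.54 and 11.2 CPM. SPINK4 was at 69.6 CPM in bin 1 and 36.4 in bin 2 with ETV6-RUNX1, and at 75.2 and 32.0 CPM in the LUC control. MXD4 was graded over 3 bins, at 36.4, 19.6 and 14.6 CPM and at 25.1, 15.6 and 9.60 CPM.

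HIST1H2BK differed from these in keeping its level over bins 1 to 3, at 31.0, 30.1 and 29.0 CPM with ETV6-RUNX1, before 7.43 in bin 4, and at 31.1, 26.8, 21.9 and 12.8 CPM in the LUC control. HIST1H1B was low in bins 1 to 4, at 2.41 to 8.80 and 2.46 to 9.91 CPM, and stood at 62.9 and 46.6 CPM in bin 5. Bins 2 to 4 thus shared its low level: against the next-ranked 10% alone its log2 ratios were -0.68 and 0.05, and those of HIST1H1E 0.19 and 0.22. PLK1 was higher in each successive bin from 1 to 4, at 3.01, 10.8, 30.4 and 84.5 CPM with ETV6-RUNX1 and 5.08, 15.8, 33.6 and 87.3 CPM in the LUC control, and was at 24.2 and 23.8 CPM in bin 7. Bin 4 thus held the highest PLK1 of any bin beside low HIST1H1B.

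The licensing list summed to 536 CPM in bin 1, 1094 in bin 2 and 1327 in bin 3 with ETV6-RUNX1 and to 738, 1203 and 1376 CPM in the LUC control, and lay between 1215 and 1512 CPM in bins 4 to 10 of the libraries. PHGDH was lowest in bin 1 and highest in bin 10, at 57.5 and 167 CPM with ETV6-RUNX1 and at 79.6 and 175 CPM in the LUC control. IGLL1 was higher in each successive bin of the LUC control, from 1161 CPM in bin 1 to 2710 CPM in bin 10, while with ETV6-RUNX1 it was at 569, 924 and 957 CPM in bins 1 to 3 and between 1050 and 1526 CPM in bins 4 to 10. MYC was at 128 to 141 CPM in bins 1 to 4 and 73.8 to 112 CPM in bins 5 to 10 with ETV6-RUNX1. The MYC and ribosome biogenesis list summed to 8299 CPM in bin 1, 9360 in bin 2, 9790 in bin 3 and 6460 in bin 10 with ETV6-RUNX1. In the LUC control it summed to 9418, 10435, 10361 and 8011 CPM. Low-share cells thus lay below bins 2 and 3 and above bin 10 for this list.

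**Figure D4:**
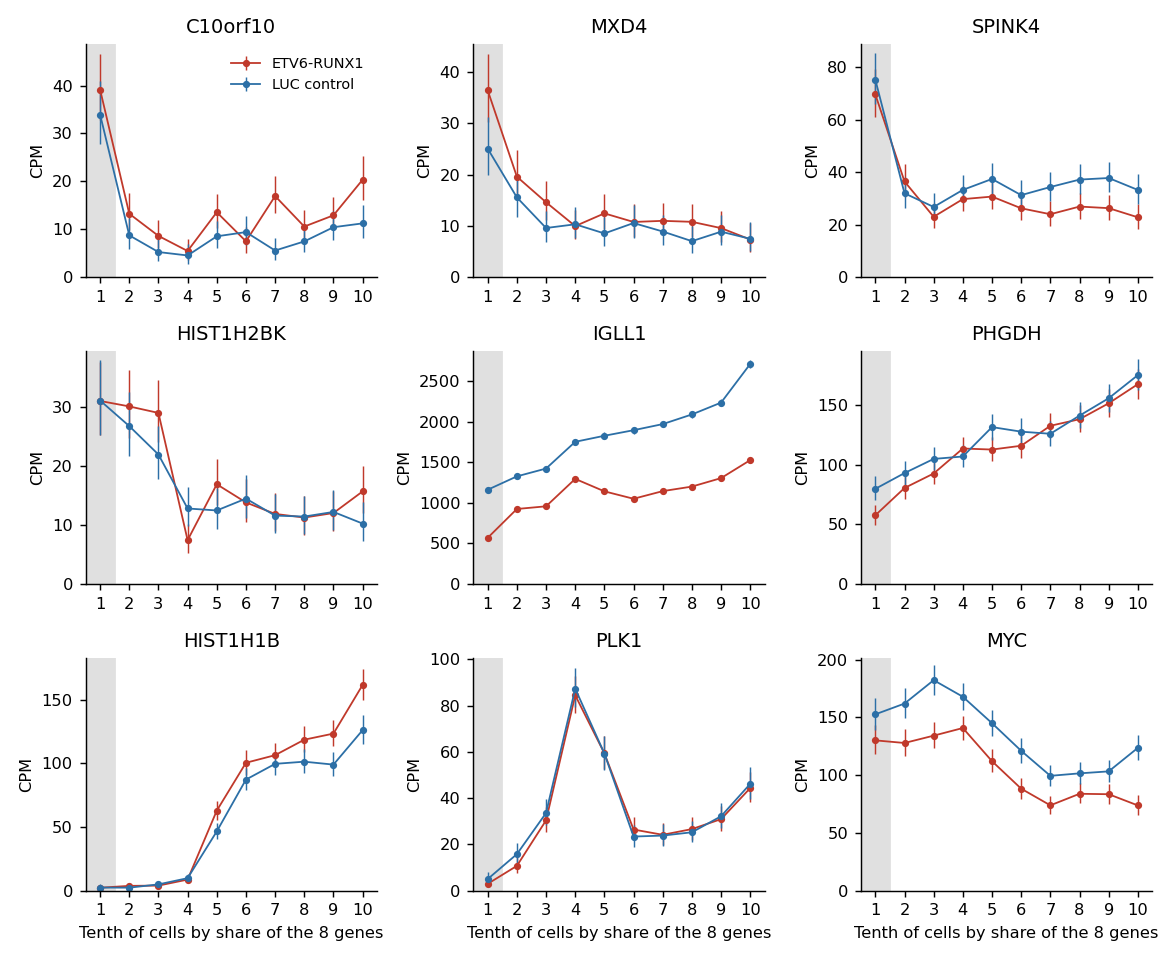
CPM of 9 genes (vertical axes) in 10 equal bins of kept cells ranked by the share of the 8 rule genes (horizontal axes, bin 1 in grey holds the low-share cells), with exact 95% Poisson intervals as bars. C10orf10 and SPINK4 are highest in bin 1, HIST1H2BK stays near 30 CPM to bin 3 with ETV6-RUNX1, and PLK1 peaks in bin 4 at 84.5 and 87.3 CPM.

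Low-share cells differed among themselves. By the summed share of licensing genes, 10 of 205 and 22 of 179 lay at or above the median of remaining cells, and 145 and 102 lay below the level that marks the lowest 10% of remaining cells. For the G2 and mitosis list, 7 and 7 lay at or above the median of remaining cells. When the low-share cells of each library were split at their median licensing share, C10orf10 was at 64.1 CPM in the 103 cells with less and 13.9 in the 102 with more with ETV6-RUNX1, and at 56.3 and 13.9 CPM in the 90 and 89 cells of the LUC control. Remaining cells were at 12.0 and 7.82 CPM, so the excess lay mostly in the low-share cells with less licensing transcripts.

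SPINK4 was likewise at 96.5 against 42.4 and 112 against 42.2 CPM, and CDKN1A at 97.7 against 63.0 and 99.8 against 36.8 CPM, in cells with less against cells with more licensing transcripts. MXD4 was at 44.3 against 28.5 and 36.8 against 14.5 CPM. IGLL1 ran the other way, at 415 against 724 and 949 against 1351 CPM, and VPREB1 was similar on both sides, at 516 against 542 and 1001 against 1002 CPM. HIST1H2BK did not follow the split, at 29.4 against 32.7 and 30.2 against 32.0 CPM. The G2 and mitosis list summed to 2090.4 against 4541 and 2682 against 5734 CPM. The MYC and ribosome biogenesis list summed to 7432 against 9175 and 8135 against 10572 CPM.

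C10orf10 also differed with the RNA content of the low-share cells, at 65.8 CPM in those with fewer UMIs and 23.5 in those with more with ETV6-RUNX1, and at 62.0 and 17.2 CPM in the LUC control. MXD4 went in the opposite direction, at 27.6 against 41.6 and 17.8 against 29.4 CPM. Split by mitochondrial share, SPINK4 was at 41.4 CPM in cells with less and 98.8 CPM in cells with more with ETV6-RUNX1, and at 58.0 and 94.1 CPM in the LUC control. The part of RNA content and of mitochondrial share in these differences was not tested.

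Within low-share cells, 79 genes (1.38%) were higher and 199 (3.47%) lower with ETV6-RUNX1 than in the LUC control, against 11 (0.192%) and 34 (0.593%) within remaining cells, whose sums are deeper. Of these calls, 7 higher and 24 lower were shared by both groups of cells. When ribosomal protein and mitochondrially encoded genes were kept out of the totals, the calls within low-share cells were 113 higher and 151 lower. LAT2, an adaptor of B-cell receptor signalling, differed most: 5.72 CPM with ETV6-RUNX1 and 47.0 CPM in the LUC control among low-share cells, a log2 ratio of -3.04 (-3.81 to -2.34), and a log2 ratio of -1.73 (-1.85 to -1.60) among remaining cells. The difference of these ratios was -1.31, with an approximate counting interval from -2.01 to -0.61.

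LAT2 was thus lower in low-share than in remaining cells with ETV6-RUNX1, at a log2 ratio of -1.57 (-2.31 to -0.92), and closer to equal in the LUC control, at -0.26 (-0.51 to -0.02). With ETV6-RUNX1 its 19 UMIs came from 14 low-share cells, and in the cells with less licensing transcripts it was at 1.20 CPM, against 10.3 CPM in those with more. IGLL1 followed the same direction, with log2 ratios between libraries of -1.03 (-1.11 to -0.95) in low-share and -0.70 (-0.72 to -0.69) in remaining cells. KB-208E9.1, at -2.08 and -0.88, is a neighbour of IGLL1, and no source used here states how reads were divided between them, so its value is uncertain.

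The next 4 genes were called lower with ETV6-RUNX1 in low-share cells and had ratios below 0 in remaining cells too. PTPRCAP, which associates with CD45, was at 38.8 against 121 CPM in low-share cells, with log2 ratios of -1.63 there and -1.49 in remaining cells. RASGRP2, an exchange factor for Rap, was at 30.7 against 86.3 CPM, with log2 ratios of -1.49 and -1.42. FAM129C had -1.60 and -1.24, and NPY, a secreted peptide, -1.53 and -0.84, where 18.2% of the ETV6-RUNX1 low-share UMIs lay in a single cell. Among genes higher with ETV6-RUNX1, CETP, a lipid transfer protein, was at 20.2 against 8.57 CPM, with log2 ratios of 1.24 (0.57 to 1.94) and 0.59 (0.37 to 0.81), and KIAA0226L had 1.07 and 0.82.

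Some genes had larger ratios between libraries in low-share cells than in remaining cells. ANAPC2, a scaffold of the anaphase-promoting complex, had 1.12 (0.35 to 1.93) in low-share and -0.15 (-0.33 to 0.03) in remaining cells, from 48 and 21 low-share UMIs. HIPK2, a kinase that acts on p53, had 1.10 and 0.03, ARHGAP15, a regulator of Rac, 1.09 and -0.07, FASTKD1 1.05 and -0.16, and ABHD13 1.05 and -0.18. Each rested on 20 to 27 UMIs in the LUC control low-share cells, under the 31.5 UMIs that equal 10 CPM there. The naming rule picked them for their large ratios or differences between 2 single libraries, so nothing is read from their size. SPP1, which encodes osteopontin, had 55 UMIs in low-share cells with ETV6-RUNX1, of which a single cell held 36.4%. Its log2 ratios of low-share over remaining cells were 1.46 with ETV6-RUNX1 and 0.19 in the LUC control.

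Proliferation genes were lower in the ETV6-RUNX1 low-share cells than in those of the LUC control. Medians of the log2 ratio between libraries were -0.58 for licensing, -0.40 for replication and -0.41 for G2 and mitosis, with 9 of 22, 9 of 39 and 9 of 61 called lower and none higher, beside 3.47% lower among all measured genes, and the medians in remaining cells were -0.04, 0.02 and -0.03. The median over all measured genes was -0.05 in low-share and -0.04 in remaining cells. PKMYT1, a kinase that holds CDK1 inactive, had -1.38 (-2.35 to -0.48) and -0.09, CDC45 -1.36 (-2.24 to -0.54) and -0.09, and PRR11 -1.36 and 0.14. The cells were ranked within each library and the boundary lay at 0.0500% and 0.0613%, so this difference cannot be told apart from that of the boundary.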

How the data were processed

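The authors deposited 1 matrix of UMI counts per library over 32738 genes, with no normalization. Per the submitters' processing notes, Cell Ranger 3.0.2 and genome build hg19 were used. No source used here states how reads of overlapping genes were counted. The 2 libraries held 44311919 UMIs in 2503 barcodes (ETV6-RUNX1) and 43315742 in 2203 (LUC control), and 224 and 84 otherwise passing cells under 8700 UMIs were left out. Doublets were left in and no caller was run. An alternative leaves out the 5% of cells with the most UMIs.

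Counts were summed per library and group of cells and scaled to their totals. A level of 10 CPM equals 33.2 and 31.5 UMIs in low-share cells. Intervals are Clopper-Pearson (95%). The computation was run on simulated Poisson counts, the model that the intervals assume. It cannot show how they behave where a gene varies from cell to cell. Of genes simulated at 1.5-fold, 42% and 56% of rises and 50% and 38% of falls were called. At 2-fold, 100% of rises were called in both libraries, and 88% and 92% of falls. The cells, the 36 gene lists (956 symbols, 18 not in the matrices) and the rules were chosen with earlier results of these data known. Named genes are up to 12 highest and 12 lowest by mean log2 ratio among genes called alike in both libraries, up to 3 of each list with the largest ratios, up to 8 each way between libraries within low-share cells, and up to 5 each way by the difference of ratios. Some genes that the rule or the marker list picks are not reported here. VPREB1, CD79A, CD79B and DNTT are given as cell markers, and MYC, RUNX1, PAX5 and EBF1 were added. Promoters were matched by gene identifier or symbol for 4473 of 5735 measured genes, and only their letters and GRCh38.p14 positions were used, since the matrices are on hg19. Tools were Python 3.11.15, numpy 2.4.6, scipy 1.17.1, pandas 2.3.3 and matplotlib 3.10.9.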

Additional observations from a re-analysis of the deposited data

How the results depend on the processing

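No result could be tested across replicates, and depth limited what a ratio could show: genes under about 10 CPM were not measured, and the low-share cells held 3320581 and 3151819 UMIs. No paired analysis was possible because each construct had 1 library and the labels carry no replicate numbers. Counts below are in the order ETV6-RUNX1 higher and lower, LUC control higher and lower, both higher and lower, then ETV6-RUNX1 over LUC control within low-share cells higher and lower, and only counts that moved by over 1.5 times are printed. When ribosomal protein and mitochondrially encoded genes were kept out of the totals, 166 and 131 genes were higher in the libraries. A floor of 1 CPM gave 369, 864, 335, 733, 103 (both higher), 217 and 332, and a floor of 50 CPM gave 8, 136, 9, 103, 5, 90, 6 and 32. A 2-fold limit gave 15, 227, 9, 171, 6, 153, 9 and 37. Taking the lowest 5% of cells gave 194 higher with ETV6-RUNX1, 197 higher in the LUC control and 79 in both, and the lowest 20% gave 34, 334, 25, 279, 13 (both higher), 34 and 113. Ranking by the replication and mitosis lists gave 157 higher with ETV6-RUNX1 and 67 in both, and shared 151 of 205 and 123 of 179 cells. A limit of 6% mitochondrial UMIs gave 45 higher in the LUC control and 15 in both.

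Comparing with the next-ranked 10% of cells alone, an alternative chosen after seeing the data like the ranking without HIST1H4C, gave 294 and 208 lower, 22 higher in both and 112 lower in both. There, HIST1H1B turned to 0.0466 in the LUC control, HIST1H1E to 0.19 and 0.22, CDKN2D to 0.0677 in the LUC control and DNAJB1 to 0.17 in the LUC control, on the log2 scale. No other called value of a named gene changed direction in any alternative, and of all values of named genes under the alternatives, 2569 lay inside the interval reported and 529 others outside it. The cause of these shifts was not tested, beyond the smaller or larger sets of genes and cells that the alternatives use.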
